A study of Mus musculus with 6 samples.

Results

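The platelet-derived growth factor (PDGF) system of the mouse comprises 4 ligand genes, Pdgfa, Pdgfb, Pdgfc and Pdgfd, and 2 receptor genes, Pdgfra and Pdgfrb. These 6 genes were taken by symbol from a table of 17572 protein-coding genes measured by RNA sequencing in skin scars, and all 6 passed the filter on low counts. Scars came from wild-type C57BL/6 mice 2 weeks after surgery. In the stretched group (3 libraries, HS for hypertrophic scar) the wound was on the upper back and its edges were stitched to the rib cage, which pulled on them. In the control group (3 libraries, NS for normal scar) the wound was on the lower back and was closed where it lay, with no pull. Setting HS against NS asks what differs in a scar that heals under tension, but tension and back position changed together and cannot be told apart. Nothing in the labels ties a library to an animal of its own. The p-values therefore reflect only how these 6 libraries vary, and that variation may be technical.

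PDGFs are secreted dimers that drive the growth and movement of mesenchymal cells by pairing receptor tyrosine kinases at the cell surface. PDGF-A and PDGF-B are trimmed inside the cell by furin-like convertases, whereas PDGF-C and PDGF-D leave the cell as latent proteins whose CUB domains must be cut off by extracellular proteases. PDGF-A and PDGF-C act through the alpha receptor, PDGF-D mainly through the beta receptor, and PDGF-B through both. In skin the alpha receptor marks fibroblasts and their precursors, and the beta receptor marks pericytes and vascular smooth muscle as well as fibroblasts. Platelets release stored PDGF into fresh wounds, which is how the family got its name.

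The 250 bases before the RefSeq start sites of 4 of these genes (build GRCm38.p6) are printed. They set the promoters of Pdgfc, Pdgfd and Pdgfra, whose HS values all lay above their NS values, beside that of Pdgfa, whose values overlapped. The promoter of Pdgfrb, whose values lay apart in the same way, is not shown. Of the pair of start sites listed for Pdgfa, the one farther upstream is shown. Capitals mark matches on either strand. The motifs searched were the TATA box, written TATAAA, and the SP1 box, written GGGCGG. The box read by nuclear factor Y was searched as CCAAT. The element of AP-1 was searched as TGANTCA and the element of TEAD factors as CATTCC. The CArG box is the one bound by serum response factor.
Pdgfc (chr3:81036166-81036415, plus strand): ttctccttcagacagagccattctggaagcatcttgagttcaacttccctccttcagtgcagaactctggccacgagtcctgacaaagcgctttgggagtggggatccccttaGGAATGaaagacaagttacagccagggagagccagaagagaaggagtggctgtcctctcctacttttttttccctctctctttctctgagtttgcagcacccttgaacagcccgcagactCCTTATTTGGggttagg
Pdgfd (chr9:6168236-6168485, plus strand): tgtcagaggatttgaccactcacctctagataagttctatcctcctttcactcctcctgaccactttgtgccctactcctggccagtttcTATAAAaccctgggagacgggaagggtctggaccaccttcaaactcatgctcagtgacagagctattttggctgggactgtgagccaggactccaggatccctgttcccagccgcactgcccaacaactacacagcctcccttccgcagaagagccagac
Pdgfra (chr5:75152001-75152250, plus strand): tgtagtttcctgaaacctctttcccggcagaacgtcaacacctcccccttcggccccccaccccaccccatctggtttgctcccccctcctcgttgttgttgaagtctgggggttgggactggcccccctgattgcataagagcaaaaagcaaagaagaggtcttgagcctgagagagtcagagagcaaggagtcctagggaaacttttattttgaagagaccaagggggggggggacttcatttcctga
Pdgfa upstream start (chr5:138994945-138995194, minus strand): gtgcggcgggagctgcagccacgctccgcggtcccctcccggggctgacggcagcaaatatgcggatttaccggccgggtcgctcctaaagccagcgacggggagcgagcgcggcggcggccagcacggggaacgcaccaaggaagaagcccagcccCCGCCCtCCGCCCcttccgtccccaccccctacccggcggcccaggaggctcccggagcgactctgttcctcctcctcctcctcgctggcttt
The Pdgfc sequence held a CArG box between bases -17 and -8 from the start site, a motif found in 1.47% of the 32851 start sites in the table, and a TEAD element on the minus strand between bases -137 and -132, found in 12.6%. The Pdgfd sequence held the letters TATAAA between bases -160 and -155 (12.4% of start sites hold them anywhere in the 250 bases). The Pdgfra sequence held none of the 6 motifs. The upstream start of Pdgfa had 72.4% G and C and 2 SP1 boxes on the minus strand (32.7% of start sites have at least 1), against 50.8% G and C for Pdgfc. No motif was shared among the 4 sequences, and no match overlapped another except the CArG box, which reads alike on both strands. A match is a description of these letters and not a measured binding site.

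The 6 genes lie on 5 chromosomes. In the GENCODE annotation of build mm10, Pdgfa spans bases 138976014 to 138997370 and Pdgfra bases 75152292 to 75198215 of chromosome 5. Pdgfb spans 79995874 to 80014977 of chromosome 15, Pdgfc 81036416 to 81214040 of chromosome 3, Pdgfd 6168584 to 6378850 of chromosome 9 and Pdgfrb 61045150 to 61085061 of chromosome 18. Exons of Pdgfa overlap those of the antisense gene 6330403L08Rik over 26.1% of its exon length, those of Pdgfc overlap the antisense gene Gm16000 over 2.89%, and those of Pdgfra overlap Gm42802 over 4.55%, Gm42803 over 1.66% and a microRNA gene over 0.299%. No source used here names the strand setting of the counting, so how reads of the shared exons were assigned is not known. Counts of these 3 genes can include reads of their partners or lack reads of their own. Exons of Pdgfb, Pdgfd and Pdgfrb overlapped no other annotated gene.

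Levels are given as CPM, counts scaled to a common library total with edgeR's TMM factors, from libraries of 20375395 to 27859889 counts. Of the 6 genes, the receptor gene Pdgfrb alone rose in HS (quasi-likelihood test of edgeR, p adjusted over all 14513 tested genes by Benjamini-Hochberg), and none fell. Among all tested genes 8.85% were called, 6.33% higher and 2.51% lower in HS, so 1 call among 6 genes is not read as more than the background. A fitted log2 fold change of at least 1 was seen in 3 of the 6 (Pdgfc, Pdgfd and Pdgfrb) and in 7.25% of all tested genes. Pdgfc, Pdgfd and Pdgfra were higher in every HS library than in any NS library without passing, and Pdgfa and Pdgfb overlapped between the groups. That made 4 of 6 genes whose groups did not overlap, all with HS higher, against 17.2% of all tested genes that lay apart in that direction and 32.3% in either. The same 4 genes had an unadjusted p below 0.05, as did 3810 of the tested genes. All 6 fitted log2 fold changes were above 0, with a median of 0.94, against -0.01 over all tested genes. In whole tissue, more cells of a type and more RNA per cell cannot be told apart, nor can fewer cells and less RNA per cell.

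**Figure D1:**
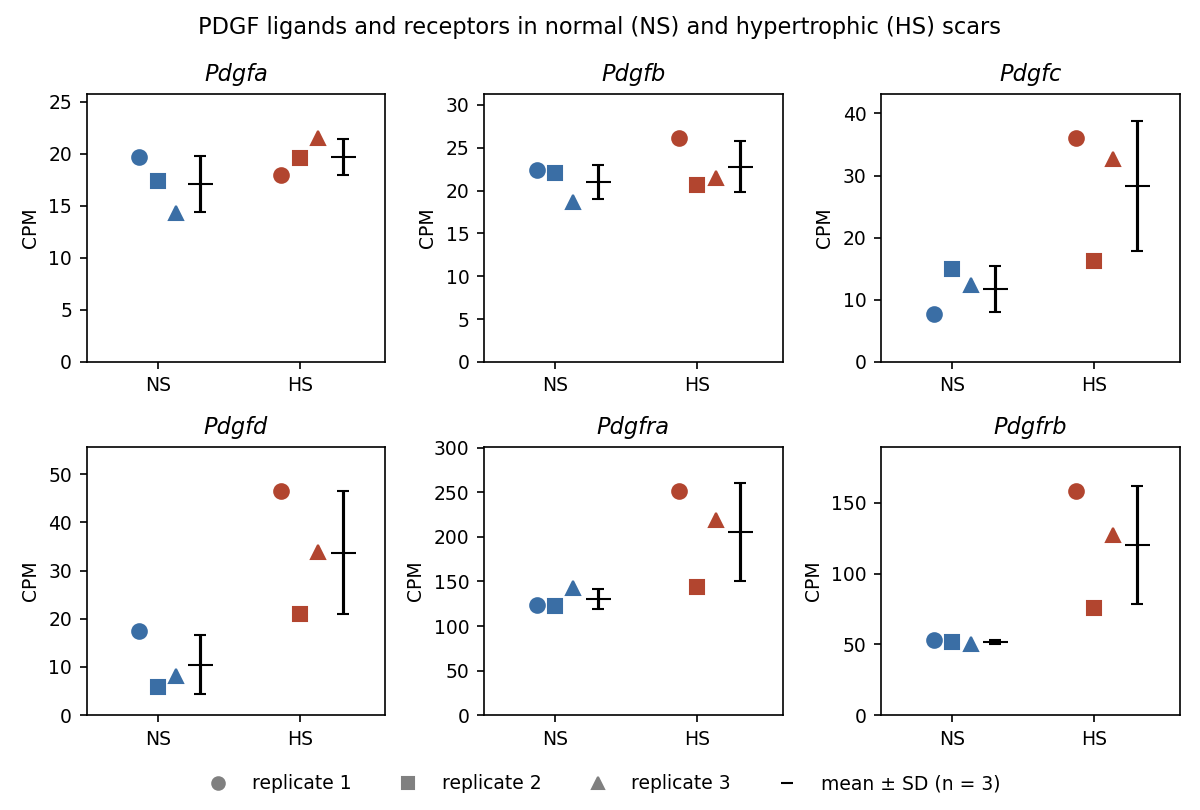
Normalised CPM of the 6 PDGF genes in each NS (blue) and HS (red) library, with 1 panel per gene, vertical axes from 0, symbols for the replicate number and bars for the mean ± SD of 3 libraries. All 3 HS libraries lie above all 3 NS libraries for Pdgfc, Pdgfd, Pdgfra and Pdgfrb, and HS replicate 2 (square) is the lowest HS library in each of those 4 panels.

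Pdgfrb encodes the beta receptor, the chain through which PDGF-B recruits pericytes to new vessels. It stood at 158, 75.7 and 127 CPM in HS replicates 1 to 3 and at 53.4, 51.8 and 50 CPM in NS replicates 1 to 3. The NS libraries were nearly alike, while the HS libraries were spread widely, with replicate 2 the lowest and all 3 above every NS library. Its mean rose 2.33-fold, from 51.7 ± 1.71 to 120 ± 41.7 CPM (SD, n = 3), with a 95% interval of 1.56-fold to 3.48-fold and an edgeR adjusted p of 0.0321. Of the tested genes, 5.11% had a smaller p. The difference from the NS mean on the log2 scale was 1.61, 0.55 and 1.29 in HS replicates 1 to 3. The call was lost without HS replicate 3 (edgeR adjusted p = 0.1218), NS replicate 1 (0.1039), NS replicate 2 (0.1072) or NS replicate 3 (0.09656), although the log2 fold change stayed between 0.97 and 1.46 when any 1 library was left out. Over the 14 other settings the adjusted p ran from 1.855e-06 to 0.1218.

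Pdgfra encodes the alpha receptor, the fibroblast chain of the pair. It had the most counts of the 6 genes, at 251, 144 and 219 CPM in HS replicates 1 to 3 and 124, 122 and 143 CPM in NS replicates 1 to 3. HS replicate 2 stood just above NS replicate 3, so the groups were separated by a margin smaller than the spread within either. The fitted difference was 1.58-fold (log2 fold change 0.66 ± 0.192, SE, 95% interval 0.21 to 1.1) and did not pass (edgeR adjusted p = 0.07644). Pdgfra was called by DESeq2 (adjusted p = 0.008315) and by edgeR without HS replicate 2, and its adjusted p ran from 6.059e-05 to 0.2181 over the 14 other settings.

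The balance within the receptor pair was compared as a ratio. The log2 ratio of Pdgfrb to Pdgfra, each per kilobase of merged exons, was 0.21, -0.05 and 0.08 in HS replicates 1 to 3 and -0.35, -0.37 and -0.64 in NS replicates 1 to 3. Every HS ratio lay above every NS ratio, with a difference of 0.53 between the means (0.08 ± 0.131 in HS and -0.45 ± 0.164 in NS, SD, n = 3). The exact two-sided permutation test gave p = 0.1, the smallest that 3 against 3 allows, and 0.15 after adjustment over the 3 ratios computed. The share of Pdgfrb in the summed receptor level was 51.4% ± 2.26 in HS and 42.2% ± 2.76 in NS.

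Pdgfd encodes the ligand of the beta receptor that is secreted in latent form. It stood at 46.4, 20.9 and 33.9 CPM in HS replicates 1 to 3 and at 17.4, 5.81 and 8.2 CPM in NS replicates 1 to 3. Both groups were wide, and NS replicate 1 stood well above the other NS libraries and not far below HS replicate 2. The fitted difference was the largest of the 6, 3.22-fold with a 95% interval of 1.48-fold to 6.98-fold, and did not pass (edgeR adjusted p = 0.07496). The log2 fold change of 1.69 became 2.25 when NS replicate 1 was left out and 1.39 when NS replicate 2 was, with no call in either case. Pdgfd was called by DESeq2 (adjusted p = 0.000246), by limma-voom (adjusted p = 0.04768) and without the robust step of edgeR (adjusted p = 0.04068), and over the 14 other settings its adjusted p ran up to 0.2045.

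Pdgfc encodes the latent ligand of the alpha receptor. It stood at 36, 16.3 and 32.7 CPM in HS replicates 1 to 3 and at 7.74, 15 and 12.4 CPM in NS replicates 1 to 3. HS replicate 2 exceeded NS replicate 2 only slightly, and NS replicate 1, the highest NS library for Pdgfd, was the lowest for Pdgfc. The fitted difference was 2.42-fold (log2 fold change 1.28 ± 0.345, SE, 95% interval 0.47 to 2.08) and did not pass (edgeR adjusted p = 0.06227). It passed with DESeq2 (adjusted p = 0.001379), without the robust step of edgeR (adjusted p = 0.04501) and without HS replicate 2 (edgeR adjusted p = 0.001075), and over the 14 other settings its adjusted p ran up to 0.1821.

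Pdgfa, the alpha receptor ligand that the epidermis and hair follicles send to the dermis in development, did not separate the groups. It stood at 18, 19.6 and 21.5 CPM in HS replicates 1 to 3 and at 19.7, 17.4 and 14.3 CPM in NS replicates 1 to 3. Its fold difference was 1.15, with a 95% interval from 0.891 to 1.49 (edgeR adjusted p = 0.4703). Pdgfb, the ligand that binds both receptors and that endothelial cells use to attract pericytes, stood at 26.1, 20.7 and 21.5 CPM in HS replicates 1 to 3 and at 22.4, 22 and 18.7 CPM in NS replicates 1 to 3. Its fold difference was 1.08, with a 95% interval from 0.86 to 1.37 (edgeR adjusted p = 0.6644). Neither gene was called under any of the 14 other settings tried. The intervals do not show that their levels were equal. Their upper ends lie below the fitted fold differences of Pdgfc, Pdgfd and Pdgfrb. The Pdgfa interval nevertheless overlaps those of Pdgfc (from 1.39-fold) and Pdgfd (from 1.48-fold). The intervals of both Pdgfa and Pdgfb overlap that of Pdgfra (from 1.16-fold). Pdgfa and Pdgfb were not tested singly against any of these genes.

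**Figure D2:**
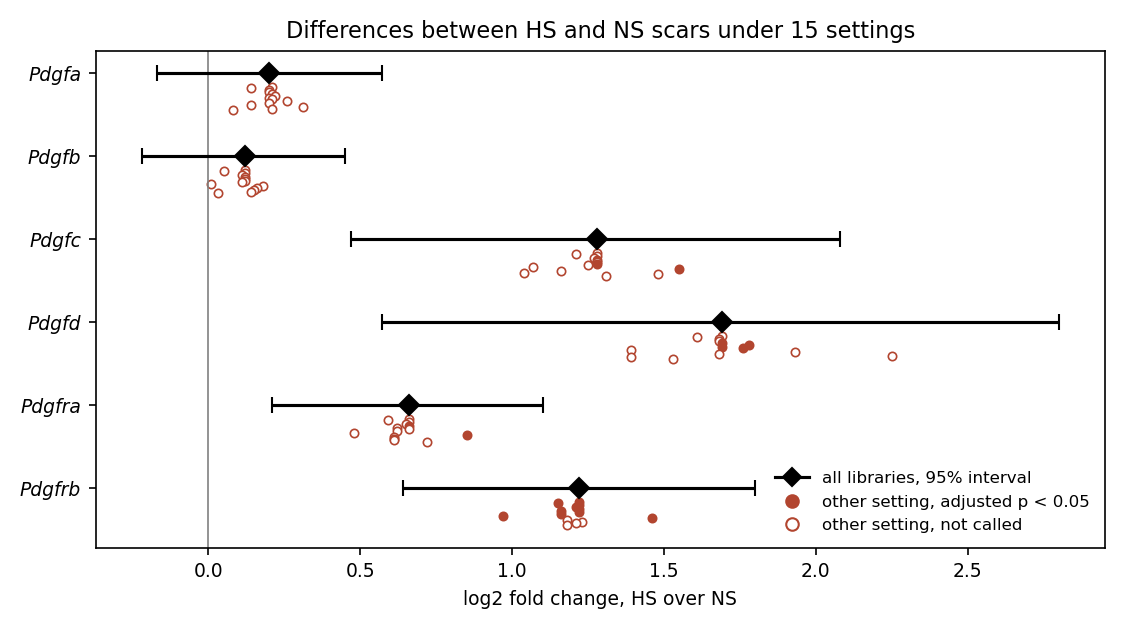
Log2 fold change of HS over NS for each PDGF gene, with black diamonds and 95% intervals for the fit of all libraries and circles for 14 other settings, filled where the adjusted p was under 0.05. Every value of every gene lies to the right of 0, the intervals of Pdgfa and Pdgfb reach across 0, and Pdgfrb is called in 10 of the 14 settings.

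The balance among the ligands was compared in the same way. Per kilobase of merged exons, Pdgfc and Pdgfd together over Pdgfa and Pdgfb together had a log2 ratio of 0.85, -0.2 and 0.51 in HS replicates 1 to 3 and -0.73, -1.18 and -0.85 in NS replicates 1 to 3. The 2 groups did not overlap, and the latent ligands outweighed the others in HS replicates 1 and 3 but in no NS library. The means differed by 1.31 (0.39 ± 0.536 in HS and -0.92 ± 0.232 in NS, SD, n = 3; exact two-sided permutation p = 0.1, the smallest possible, and 0.15 after adjustment over 3 ratios). Pdgfd made up 37.2% ± 6.04 of the summed ligand level in HS and 19.9% ± 8.94 in NS. The share of Pdgfa was 23.5% ± 6.39 in HS and 33.9% ± 1.62 in NS. The share of Pdgfc overlapped between the groups, at 19.4% ± 3.65 in HS and 14.7% ± 5.79 in NS.

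Ligands and receptors were also compared as sums. The summed ligand level was 28.1 ± 6.44 CPM per kilobase in HS and 16.2 ± 2.37 in NS, and the summed receptor level 42.4 ± 13.1 in HS and 22.4 ± 0.882 in NS (SD, n = 3). The log2 ratio of the 4 ligands to the 2 receptors was -0.57 ± 0.136 in HS and -0.48 ± 0.244 in NS, a difference of -0.09 that lay within the spread of the libraries (exact permutation p = 0.7). That difference was 0.03 without NS replicate 1.

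**Figure D3:**
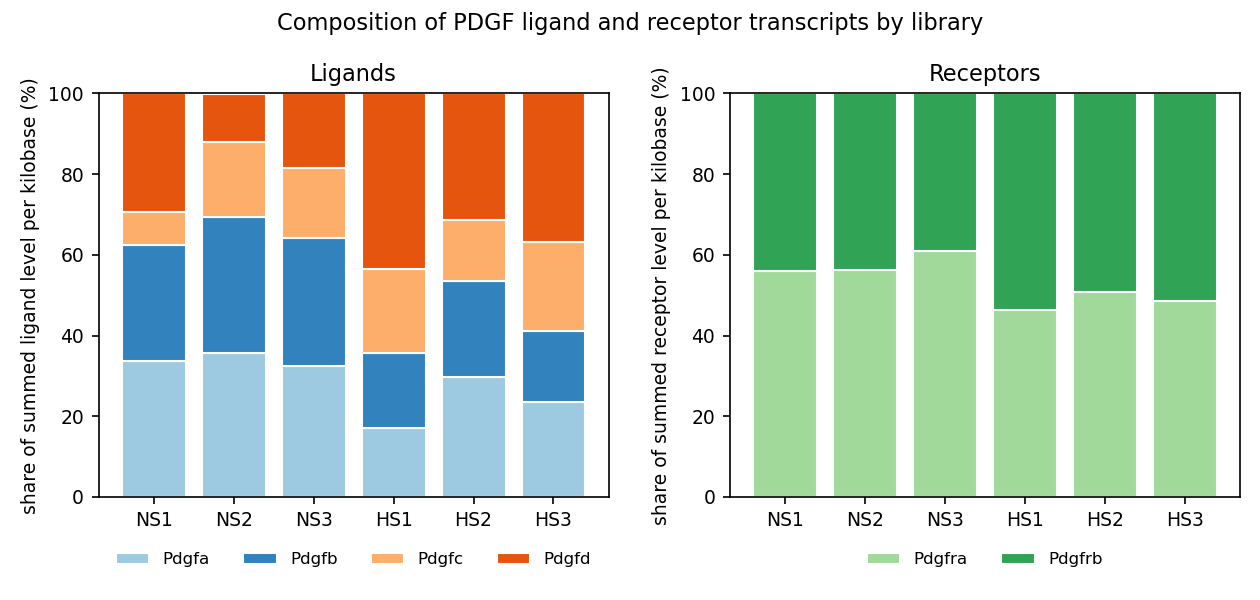
Share of each gene in the summed level per kilobase of merged exons of the 4 ligands (left) and the 2 receptors (right), as stacked bars for each of the 6 libraries. The Pdgfc and Pdgfd segments together take up more of each HS bar than of any NS bar, and the Pdgfrb segment runs from 39.1% to 44% in NS and from 49.1% to 53.6% in HS.

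The levels per kilobase gave an order of the genes in each group. In NS, Pdgfra stood highest (12.9 ± 1.12 CPM per kilobase of merged exons), followed by Pdgfrb (9.44 ± 0.311), Pdgfa (5.49 ± 0.876), Pdgfb (5.05 ± 0.486), Pdgfd (3.32 ± 1.95) and Pdgfc (2.3 ± 0.722). Within each NS library Pdgfra exceeded Pdgfrb, Pdgfrb exceeded Pdgfa and Pdgfa exceeded Pdgfb, the last by less than the spread between libraries. The order of Pdgfb, Pdgfd and Pdgfc differed between NS libraries. In HS the order was Pdgfrb (22 ± 7.61), Pdgfra (20.4 ± 5.48), Pdgfd (10.7 ± 4.04), Pdgfa (6.32 ± 0.553), Pdgfc (5.57 ± 2.07) and Pdgfb (5.48 ± 0.702). Within each HS library Pdgfra exceeded Pdgfd and Pdgfd exceeded Pdgfa, although their ranges over the libraries overlapped. The order within the receptor pair, and that of Pdgfa, Pdgfc and Pdgfb, differed between HS libraries. With the length of the longest transcript in place of merged exons, Pdgfra stood above Pdgfrb in HS as well (29.9 ± 8.05 against 22.2 ± 7.69), and the order of the other genes was as given.

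Some genes that process or bind PDGF ligands rose in HS. Of 10 tested, 5 rose, none fell and 5 were not called, beside 6.33% called higher and 2.51% lower among all tested genes. Their median log2 fold change was 0.77, against -0.01 over all tested genes. Without HS replicate 3 or any 1 NS replicate none of these 10 was called. Without HS replicate 2, 7 were called higher and 1 lower. With DESeq2, limma-voom, the replicate block, no robust step or library totals alone, and without HS replicate 1, 1 was called lower. Plat, which encodes the tissue plasminogen activator that activates PDGF-C, stood at 211, 83.9 and 148 CPM in HS replicates 1 to 3 and between 48.8 and 51 CPM in NS. It rose 2.97-fold (edgeR adjusted p = 0.03337). Plau, the urokinase that can activate PDGF-D, rose 1.43-fold (adjusted p = 0.03418), from 40.5 ± 3.19 to 58.1 ± 7.44 CPM. Both proteases were highest in HS replicate 1 and lowest of the HS libraries in replicate 2. Sparc, a matrix protein that binds PDGF-B, rose 2.57-fold (adjusted p = 0.01374), and Nrp1, a co-receptor shared with VEGF, rose 1.80-fold (adjusted p = 0.03678). St14, the epithelial protease matriptase, which also cuts PDGF-D, stood at 148 ± 33.5 CPM in HS against 228 ± 26.4 in NS without passing (adjusted p = 0.05206). Furin, the convertase of PDGF-A and PDGF-B, stood at 125 ± 12.9 CPM in HS against 144 ± 20.7 in NS (adjusted p = 0.3065).

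Signalling genes below the receptors were counted next. Of 35 genes for adaptors, kinases and transcription factors of the receptor pathway, 3 rose, 1 fell and 31 were not called, beside 8.85% called among all tested genes, and their median log2 fold change was 0.03. The number called higher was 8 without HS replicate 2 and 0 without HS replicate 3 or any 1 NS replicate. Among those that rose was the adaptor Nck1, from 45 ± 5.58 to 61.8 ± 2.38 CPM (1.37-fold, edgeR adjusted p = 0.03913). The 1 that fell was Hras, which encodes a Ras GTPase (log2 fold change -0.32, adjusted p = 0.0449).

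Of 15 negative regulators of the pathway, edgeR called none, with 2 at an unadjusted p below 0.05, 1 called by DESeq2 and none by limma-voom. Cblb, a ubiquitin ligase that marks active receptors for breakdown, had the smallest p and averaged 85.3 ± 5.43 CPM in HS against 70.4 ± 4.03 in NS (adjusted p = 0.08679). Ptprj, a phosphatase that acts on the beta receptor, stood at 57 ± 21.3 CPM in HS against 34.8 ± 3.52 in NS (adjusted p = 0.1191). Spry1, a feedback inhibitor of receptor tyrosine kinases, stood at 30 ± 2.17 CPM in HS against 36 ± 2.58 in NS (adjusted p = 0.1908), and 24.4% of its exon length is shared with a gene on the other strand.

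Immediate early genes and other genes that PDGF induces in cultured fibroblasts showed no common direction. Of 14 tested, 1 rose, 1 fell and 12 were not called, beside 8.85% called among all tested genes. Their median log2 fold change was -0.13. Has2, the hyaluronan synthase of fibroblasts, rose 2.46-fold (edgeR adjusted p = 0.01401), from 5.58 ± 0.779 to 13.7 ± 2.59 CPM. The zinc finger factor Egr2 fell by 0.48 on the log2 scale (adjusted p = 0.03734), from 75.1 ± 7.72 to 53.9 ± 5.84 CPM. Ccl2, a monocyte chemokine, stood at 5.86 ± 2.75 CPM in HS against 2.21 ± 0.769 in NS without passing (adjusted p = 0.06553). Among relatives of the PDGF ligands and receptors the median was 0.47. Of 11 tested, 1 rose and none fell, beside 6.33% called higher among all tested genes. The 1 that rose was Vegfa, the main growth factor of vessels, at 97.3 ± 9.32 CPM in HS against 70 ± 4.28 in NS (1.39-fold, adjusted p = 0.02388). Vegfc, which acts on lymphatic vessels, stood at 2.74 ± 0.2 against 1.14 ± 0.433 CPM (adjusted p = 0.08496), and Csf1, a ligand of a receptor in the same class as Pdgfra, at 59.3 ± 20.1 against 37.3 ± 0.377 CPM (adjusted p = 0.101).

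**Figure D4:**
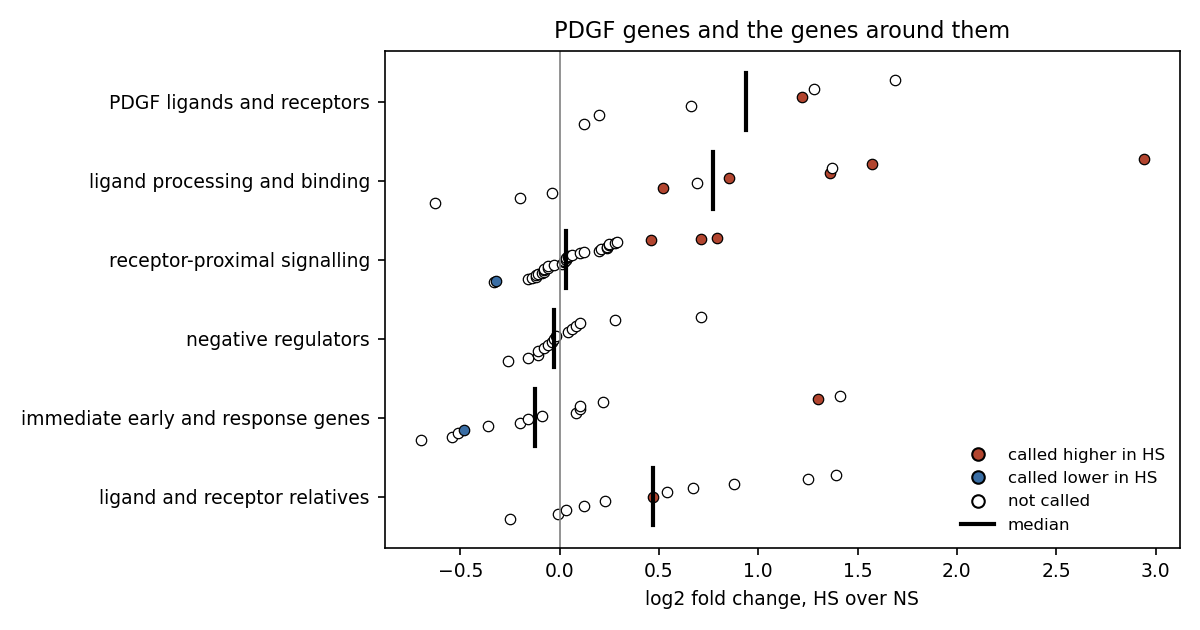
Fitted log2 fold change of HS over NS for the 6 PDGF genes and for the tested genes of 5 lists around them, with 1 circle per gene, red for called higher, blue for called lower and white for not called, and a black line at each median. Medians lie at 0.94 for the PDGF genes and 0.77 for ligand processing and binding, and between -0.13 and 0.03 for signalling, negative regulators and response genes.

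Among markers of the cells that carry or make PDGF, most fibroblast and endothelial markers rose in HS, while mural cell markers were mixed. The shares over all tested genes were 6.33% called higher and 2.51% lower. Of 8 fibroblast markers, 6 rose and none fell, and their summed level ran from 14224 to 26769 CPM in HS and from 6906 to 8802 CPM in NS. Lum, a matrix proteoglycan, rose 3.47-fold (edgeR adjusted p = 0.009944) and Col1a2, a chain of type I collagen, 2.70-fold (adjusted p = 0.01328). These had the smallest p of the list, whose log2 fold changes ran from -0.04 to 2.39 (median 1.39), against 0.66 for Pdgfra. The fibroblast sum was highest in HS replicate 1 and lowest of the HS libraries in replicate 2, the order seen for Pdgfra, Pdgfrb, Pdgfc and Pdgfd. Of 10 mural cell markers, 3 rose and 1 fell, and the sum ran from 598 to 843 CPM in HS and from 456 to 494 CPM in NS. The pericyte genes Rgs5 and Kcnj8, with the smallest p of the list, rose 2.42-fold (adjusted p = 0.009944) and 3.66-fold (adjusted p = 0.01809). Cspg4, which also marks pericytes, fell by 0.44 on the log2 scale (adjusted p = 0.04041). Log2 fold changes of the mural list ran from -0.44 to 1.87 (median 0.69), against 1.22 for Pdgfrb. Of 10 endothelial markers, 7 rose and none fell, with sums of 314 to 532 CPM in HS and 183 to 192 CPM in NS. Pecam1 and Kdr, with the smallest p of the list, rose 2.96-fold (adjusted p = 0.008279) and 2.20-fold (adjusted p = 0.009944). Log2 fold changes of the endothelial list ran from 0.57 to 1.57 (median 1.19), against 0.12 for the endothelial ligand Pdgfb. No marker of these 3 lists was at 0 in any library, and the part of cell numbers in the PDGF differences was not tested. Without any 1 of the NS replicates no marker of these 3 lists was called, and without HS replicate 3 the numbers higher were 1, 1 and 2.

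Other cell types were checked in the same way. Of 9 platelet and megakaryocyte markers 7 were in the table and 3 passed the filter, and edgeR called none of them (2 had an unadjusted p below 0.05, DESeq2 called 1, lower, and limma-voom none). The sum ran from 19.7 to 81.1 CPM in HS and from 21.5 to 22.4 CPM in NS. Pf4, a platelet chemokine, stood at 63.5, 11.7 and 21.7 CPM in HS replicates 1 to 3 and at 7.04, 10.2 and 12.7 CPM in NS replicates 1 to 3. Of the 3 tested, Pf4 was the only 1 with a log2 fold change above 0, and their median was -0.13. Treml1, which did not pass the filter, was at 0 in every NS library. Of 8 tested macrophage markers edgeR called none (4 had an unadjusted p below 0.05, DESeq2 called 4 and limma-voom 1), with sums of 1110 to 2884 CPM in HS and 878 to 1045 CPM in NS. Lyz2 stood at 1172 ± 554 CPM in HS against 418 ± 58.3 in NS (edgeR adjusted p = 0.05151), and Cd68 at 77.8 ± 32.9 and 34.5 ± 8.35 CPM (adjusted p = 0.08445). Of 4 tested neutrophil markers 3 rose, with sums of 102 to 350 CPM in HS and 13.4 to 21 CPM in NS. S100a9 rose 31.1-fold (adjusted p = 0.01036), and Retnlg was counted 48, 16 and 23 times in HS replicates 1 to 3 and 0 times in NS. Csf3r and Ly6g were at 0 in at least 1 library. The skin origin of the libraries was plain from keratinocyte markers, which summed to 13918 to 22901 CPM in HS and 21073 to 29412 CPM in NS. Of 8 of them 2 fell, Krt5 (log2 fold change -0.49, adjusted p = 0.0407) and Lor (-0.97, adjusted p = 0.04542). Of 8 hair follicle markers 3 fell, among them Krt71 (-0.59, adjusted p = 0.03622) and Krt27 (-0.43, adjusted p = 0.04046), with sums of 14915 to 18286 CPM in HS and 21057 to 24566 CPM in NS. All 8 had a log2 fold change below 0 and an unadjusted p below 0.05. DESeq2 called 8 of them lower and limma-voom 4. Of 6 skeletal muscle markers, the fast myosin Myh4 rose 9.36-fold (adjusted p = 0.004612) and myoglobin, Mb, fell by 0.90 on the log2 scale (adjusted p = 0.01579), with 27.6% of its exon length shared with an antisense gene. The 6 adipocyte and 5 Schwann cell markers had no call by edgeR, DESeq2 or limma-voom, with 1 marker of each list at an unadjusted p below 0.05. The part of these cells in the PDGF values was not tested.

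The genes whose pattern over the 6 libraries was most like each PDGF gene were found as those with the smallest root mean square difference of centred log2 CPM, among 10191 other genes with a mean of at least 10 CPM. For Pdgfrb these were Tnfrsf23, a decoy receptor of the TNF family (0.0364), and Zcchc24 (0.0699), against a median of 0.687 over all genes searched. Tnfrsf23 stood at 40.4, 19.3 and 31.7 CPM in HS replicates 1 to 3 and at 12.8, 12.5 and 12.7 CPM in NS replicates 1 to 3, the same steps as Pdgfrb at a lower level. For Pdgfra they were Epb4.1l2, a membrane skeleton protein (0.0491), and Adamts5, a protease of matrix proteoglycans (0.0596). For Pdgfc they were Tmeff2 (0.128) and the connexin gene Gjc1 (0.157), and for Pdgfd, the least matched, Slc41a2 (0.336) and Rgs4, a regulator of G protein signalling (0.345). Pdgfa was closest to Atp5s (0.0561) and Zfp748 (0.059), and Pdgfb to Lztr1 (0.0271) and Slc35a5 (0.0333), none of them called between HS and NS. The median over all genes searched was 0.441 for Pdgfra, 0.798 for Pdgfc, 1.07 for Pdgfd, 0.257 for Pdgfa and 0.229 for Pdgfb. These patterns were taken over the same 6 libraries as the group difference, so they are a description of it and not separate evidence.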

How the data were processed

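RNA of 6 mouse scar libraries (3 HS, 3 NS) was depleted of ribosomal RNA and read as 150 bp paired ends, per the labels' protocols. The values used were the authors' raw read counts for each gene, whole numbers with no normalization, per the file headers. HTSeq 0.9.1, HISAT2 2.0.4 and cutadapt 1.9.3 are named beside edgeR and build mm10, per the submitters' processing notes. Normalized values, which fill another 6 columns, were left aside. Neither tool settings nor the counting strand is stated in the sources used here.

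Groups came from the sample titles. Genes were kept by filterByExpr (minimum count 10), leaving 14513 of 17572, scaled by TMM and tested with edgeR 4.0.16 in R 4.3.3 (glmQLFit, glmQLFTest, robust, group as the only term), with Benjamini-Hochberg adjustment over all tested genes at a threshold of 0.05. Libraries of the same group differed by more than sampling noise in every pair (chi-square per gene 14.2 to 107). In simulated counts for 14513 genes of this comparison, the procedure recovered 31.3%, 77.6% and 89.4% of genes changed 1.5-fold, 2-fold and 4-fold, with 10 false calls out of 142. The simulation drew genes independently, with the same variability in both groups. In the data HS pairs differed more (chi-square per gene 47.9 to 107) than NS pairs (14.2 to 20.7), so these rates need not hold for these libraries. Levels per kilobase divide CPM by the merged exon length in GENCODE M21. Ratios were tested by exact permutation of libraries. Alternatives were RLE size factors, library totals alone, no filter, at least 1 CPM in 3 libraries, DESeq2 1.42.0, limma-voom (limma 3.58.1), no robust step, the replicate number as a block, and each library left out in turn.

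The 6 genes and the 5 pathway and 11 marker lists (169 of 174 entries in the table) were chosen with earlier results of these data known. The rule named the 6 genes, the 3 genes of each pathway list and 2 of each marker list with the smallest p, and the 2 genes most like each PDGF gene. Plau, Nrp1, St14, Furin, Hras, Cspg4, Treml1, Csf3r, Ly6g, Itgam, Mrc1 and Csf1r were named after their values were seen. Some genes that the rule or the lists hold are counted but not reported here by name. Of 55 genes named by the rule, exons of 12 overlapped another gene.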

Additional observations from a re-analysis of the deposited data

How the results depend on the processing

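The log2 fold changes of the 6 PDGF genes were above 0 under all 14 alternatives, and none was called lower. The number called higher, 1 in the main analysis (Pdgfrb), was 4 with DESeq2, 2 with limma-voom, 3 without the robust step and between 0 and 3 when 1 library was left out. It was 1 with either other scaling and with either other filter. Among all tested genes, 919 were called higher in the main analysis, 1614 with DESeq2, 656 with limma-voom and 992 without the robust step. The range was 20 to 2000 when 1 library was left out. Replicate numbers are shared by the groups, but same-numbered libraries deviated together at r of only 0.0133 to 0.036, so the numbers were not taken to pair them, and whether they share an animal or a batch is not known. With the replicate block 2 PDGF genes were called, Pdgfrb and Pdgfd, beside 730 of all tested genes called higher.

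Over all genes, the 919 higher and 365 lower calls became 1614 and 821 with DESeq2 and ranged from 20 to 2000 and from 5 to 1257 when 1 library was left out (largest without HS replicate 2, smallest without NS replicate 2). Library totals alone gave 585 lower calls, so that 61.4% of calls were higher in place of 71.6%, and moved the fold changes of all genes by a median of -0.059 on the log2 scale. The log2 ratio of ligands to receptors turned from -0.09 to 0.03 without NS replicate 1 and ranged from -0.22 to 0.03 when 1 library was left out. The ratio of Pdgfrb to Pdgfra ranged from 0.44 to 0.6 and that of the latent to the other ligands from 1.08 to 1.6. The pathway and marker lists lost all their calls without NS replicate 2 or NS replicate 3, except Myh4. The cause was not tested in any of these cases. With 3 libraries a group, the 95% interval of Pdgfd spans 1.48-fold to 6.98-fold, which limits what can be said of its size.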

Other observations

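Csf1r, the receptor of colony-stimulating factor 1, is the next annotated gene after Pdgfrb on the same strand of chromosome 18 and belongs to the same receptor class. Its counts were 19, 3 and 10 for HS replicates 1 to 3 and 2, 6 and 1 for NS replicates 1 to 3, too few to pass the filter. Those of Pdgfrb were 4213, 1700 and 3461 for the HS replicates and 1221, 1078 and 1250 for the NS replicates. Other macrophage genes were plentiful in the same libraries, with Itgam at 4947, 949 and 2231 counts in HS replicates 1 to 3 and Mrc1 at 12156, 3978 and 7445. Csf1r is normally expressed by macrophages, and the cause of its low count was not tested.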
